A study of Homo sapiens with 4 samples.

Results

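Glycosyltransferases and glycan sulfotransferases were described in m7G peak lists of HepG2, a human hepatocellular carcinoma cell line. The genes were chosen by name, as every row of either list whose gene symbol begins with B3GNT, B3GALT, B4GALT, GALNT, MGAT, ST3GAL, ST6GAL, CHST, CHSY, EXT, EXTL, FUT, ALG, XYLT, HS2ST, HS3ST, HS6ST or NDST followed by a digit. In all, 23 genes qualified out of 3769 that carried a peak in at least 1 list, with 18 of 3355 peaks in replicate 1 and 30 of 4747 peaks in replicate 2. The study sequenced poly(A) RNA of untreated cells as input (2 samples) and after pull-down with an antibody against N7-methylguanosine, m7G (2 immunoprecipitation, IP, samples), and the lists analysed here are the authors' peaks of the IP samples. Each peak is a region of a transcript that the authors called enriched, and its fold and p-value are theirs. The depth behind a fold is unknown, so folds carry no counting interval. Nothing in the labels tells if the IP samples were separate cultures, and the spread between the lists may be technical. Of 12 hepatocyte marker genes, APOA1, APOB, APOE, SERPINA1 and TF had peaks in both lists, and the other 7 had none. Of the markers of other cells, CD68 and LYZ (2 of 6 immune genes) and ACTA2 (1 of 6 endothelial and stellate genes) had peaks in both lists. Of all RefSeq protein-coding genes, 18.7% had a peak in either list, and these small marker counts were not tested against that share. A gene without a peak can be expressed, and a peak depends on reads assigned to the gene, which were not examined here.

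Sugar chains are assembled in the endoplasmic reticulum and the Golgi apparatus by enzymes that each add a particular sugar in a particular linkage. N-glycans start as a lipid-linked precursor made by ALG enzymes, are transferred to the protein and are then branched by MGAT enzymes and extended with galactose and sialic acid. Glycosaminoglycans, the chains of proteoglycans, start on a short linker made by xylosyl- and galactosyltransferases, are polymerised as heparan or chondroitin chains by EXT and CHSY enzymes, and are then sulfated. m7G is best known as the base of the 5' cap of mRNAs and also occurs inside RNAs. Hepatocytes secrete many N-glycosylated plasma proteins and carry heparan sulfate on their surface.

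Sequence is shown for the 4 genes with a peak that covered at least 30 of the 50 transcribed bases after a start in the RefSeq table, the peaks for which sequence was at hand. Guanines, the base that carries m7G, are in capitals, and each line gives the first 30 bases of the peak on the transcribed side of the start (GRCh38.p14). B4GALT7 lies on the plus strand at chr5:177600132-177600161, CHST14 on the plus strand at chr15:40470991-40471020, MGAT4B on the minus strand at chr5:179806837-179806866 and MGAT2 on the plus strand at chr14:49620801-49620830. The B4GALT7, CHST14 and MGAT4B stretches are those of the replicate 1 peaks, and MGAT2 had its peak at the start in replicate 2 alone.
B4GALT7: GGaGGcGccGcGtaGGcccGGGaGGccGGG
CHST14: cGGGacatccGGcccGGGtccctcGccGcG
MGAT2: aGttGcGGGttGtcataacGGtccccGccG
MGAT4B: aGtGtcccGcGcccctGatatctGcaGtGa
Guanine made up 17 of the 30 bases in B4GALT7, 11 in CHST14, 10 in MGAT2 and 8 in MGAT4B. In the 50 bases after each listed start, the median share of guanine was 44% over 31 windows of 20 of the 23 genes. It was 38% over 4381 windows of all genes with a peak and 30% over all 35116 windows. The quartiles overlapped, 33 to 48% in these genes and 30 to 44% in all genes with a peak. The median share of guanine and cytosine together was 70% in both. Only 15 of the 31 windows were of genes with a peak midpoint under 500 nt from the 5' end.

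Peaks were found in 9 of the 12 glycan classes. Of the 118 RefSeq protein-coding genes whose symbol fits the name rule, 23 (19.5%) had a peak in either list, against 18.7% of all RefSeq protein-coding genes. The 14 ALG genes, the 18 GALNT genes that start mucin-type O-glycans on serine and threonine, and the 9 FUT fucosyltransferase genes had no peak in either list, so 0 of these 41 genes were represented. The 8 B3GNT genes, both ST6GAL genes and the 3 EXTL genes had none either. Among the other families, 4 of 9 MGAT, 4 of 7 B4GALT, 4 of 15 CHST, 2 of 7 HS3ST and 2 of 6 ST3GAL genes had a peak. So did 1 of 6 B3GALT, 1 of 4 NDST and 1 of 3 HS6ST genes, 1 of 2 each of the EXT, CHSY and XYLT genes, and HS2ST1. No family was tested against the 18.7% of all protein-coding genes. Genes of glycosaminoglycan synthesis (linker, heparan sulfate and chondroitin classes together) made up 13 of the 23 genes, of 33 such genes in RefSeq. An absent mRNA and an mRNA without enrichment cannot be told apart here.

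**Figure D1:**
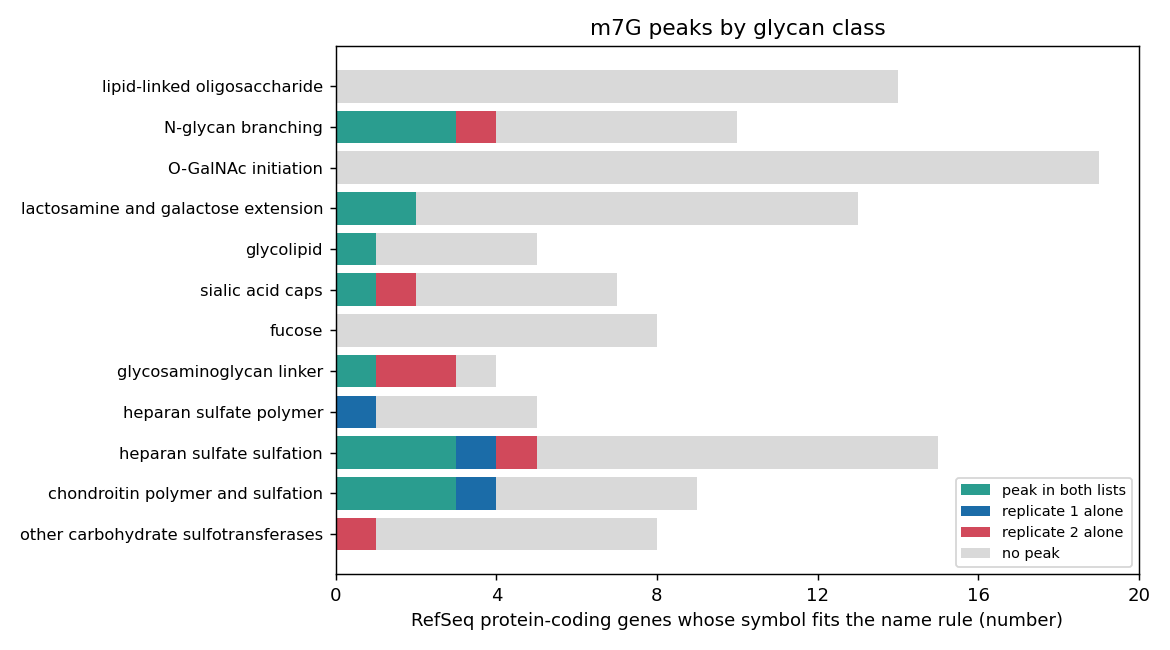
Number of RefSeq protein-coding genes that fit the name rule (horizontal axis) in each glycan class, split by whether they had a peak in both lists, in replicate 1 alone, in replicate 2 alone or in neither. The lipid-linked oligosaccharide, O-GalNAc and fucose classes hold no gene with a peak, and 3 of 4 linker genes have one. B3GALT9, which was put in no class and had no peak, is left out.

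Of the 23 genes, 14 had peaks in both lists (60.9%, 95% Wilson interval 40.8 to 77.8%, counting error only), against 51.7% of all genes with a peak. They were MGAT1, MGAT2, MGAT4B, B4GALT1, B4GALT2, B4GALT5, B4GALT7, ST3GAL2, HS2ST1, HS3ST3A1, HS3ST3B1, CHSY1, CHST13 and CHST14. EXT1, NDST1 and CHST3 had a peak in replicate 1 alone, and MGAT5, ST3GAL1, B3GALT6, XYLT2, HS6ST1 and CHST10 in replicate 2 alone. A peak was counted as shared when the other list held a peak for that gene and both had 50% or more of the shorter one in common. This held in 11 genes (47.8%, all genes 45.3%), and in 12 pairs because MGAT4B held 2. Shared peaks made up 12 of 18 peaks in replicate 1 (66.7%, all peaks 65.1%) and 12 of 30 in replicate 2 (40%, all peaks 45.4%), shares near those of the whole lists. B4GALT1, HS3ST3B1 and ST3GAL2 had peaks in both lists that did not overlap at all, which was 3 of 14 (21.4%) against 10.1% of all genes in both lists.

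Among the N-glycan branching enzymes, MGAT4B, which adds a branch to the mannose core of complex N-glycans, had the peaks with the smallest p of all 23 genes. A peak on chromosome 5 from 179797657 to 179797954 had the same boundaries in both lists, with folds of 3.36 and 2.96 in replicates 1 and 2 and -log10 p of 136 and 107. It ranked 28th by p of the replicate 1 peaks and 34th of the replicate 2 peaks, whereas its folds stood at the 43rd and 31.6th percentiles of their lists. Its midpoint was 208 nt from the 3' end of the gene, just outside the 200 nt used to call a peak at an end. The other MGAT4B peak lay at the 5' end, from 179806507 to 179806893 in replicate 1 (fold 4.39, -log10 p 45.1) and to 179806863 in replicate 2 (fold 3.17, -log10 p 35.8). This region overlaps the span of SQSTM1, an autophagy receptor gene on the opposite strand, which had spliced peaks of its own there on the plus strand with folds of 2.4 and 2.2, each overlapping the MGAT4B peak by 85 nt. The libraries were made with a stranded kit, but no source used here says whether the peak caller used the strand.

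MGAT1, the enzyme that opens the pathway to hybrid and complex N-glycans, had a spliced peak on chromosome 5 from 180808994, which joined blocks on either side of a gap of 963 nt. Its folds were 7.42 and 5.18, with -log10 p of 4.81 and 3.61. The block boundaries at the splice site were the same in both lists (180809076 and 180810040), and the upstream block ended at 180810107 in replicate 1 and 180810077 in replicate 2. The midpoint lay 6547 and 6562 nt from the 5' end of the gene's span, but the upstream edge of the peak was 30 and 60 nt from another start that RefSeq lists for MGAT1. MGAT2, which adds the second antenna, differed between the lists. A peak with its midpoint 403 and 389 nt from the start was shared, with folds of 1.76 and 1.84, the lowest of the 12 pairs. Replicate 2 held a further peak at the start itself, from 49620801 to 49620979 on chromosome 14, with a fold of 7.23, which had no counterpart in replicate 1. MGAT5, a further branching enzyme, had 1 peak of 61 nt in replicate 2 with a fold of 2.18 and a -log10 p of 2.86, which ranked 4703rd by p of the 4747 peaks.

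Of the galactosyltransferases, B4GALT2, which extends N-acetylglucosamine with galactose, had the highest fold of any of the 48 peaks. Its spliced peak on chromosome 1 ran from 43979232 to 43981126 in replicate 1 (fold 6.32, -log10 p 10.6) and from 43979202 to 43981216 in replicate 2 (fold 14.8, -log10 p 15.7). Both joined the same exon edges, 43979511 and 43981109, and the replicate 2 peak was longer, 418 nt against 298 nt. These folds were 2.34 times apart, and B4GALT2 was the only pair of the 12 to differ by more than 1.5 times. Replicate 2 had a further B4GALT2 peak 298 nt from the 3' end with a fold of 2.48. B4GALT1, its close relative and a subunit of lactose synthase, had peaks of 61 nt with low folds, 2.29 in replicate 1 and 1.42 in replicate 2. They lay 329 nt apart on chromosome 9. Measured from the far end of the gene's span, their midpoints were 17821 and 18211 nt downstream, but RefSeq lists 2 starts inside the span. The replicate 1 midpoint was 68 nt downstream of the upstream one, and the replicate 2 midpoint was 281 nt downstream of the other. The replicate 1 peak lies in the span of an antisense gene, B4GALT1-AS1. B4GALT5, which makes lactosylceramide, the base of most glycolipids, had a pair 2259 and 2334 nt from the 3' end with folds of 4.15 and 3.51. These overlapped by 31 of 61 nt (50.8%), just inside the limit for a shared peak. Replicate 2 had a further B4GALT5 peak 204 nt from the 5' end with a fold of 6.33.

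ST3GAL1 and ST3GAL2, which cap galactose with sialic acid, had no shared peak. ST3GAL2 had 1 peak in replicate 1 with a fold of 3.18 and 3 in replicate 2 with folds of 2.4, 6.33 and 7.03. The nearest of the replicate 2 peaks was 4180 nt from the replicate 1 peak. That peak was spliced across 39415 nt, from a block 42 nt downstream of the 5' end of the gene to an internal block. ST3GAL1 had 1 peak of 61 nt in replicate 2, with a fold of 3.05.

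**Figure D2:**
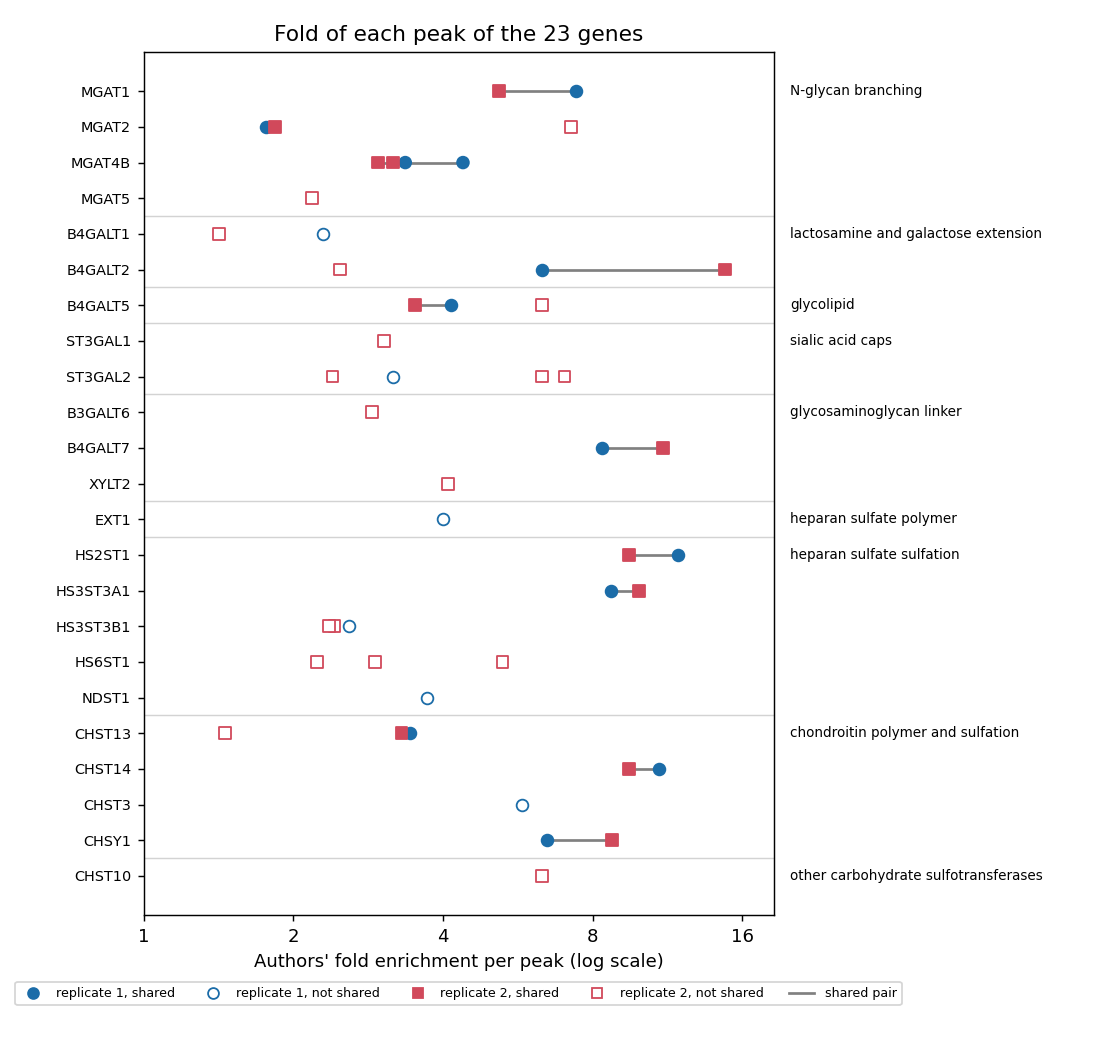
The authors' fold enrichment of each peak of the 23 genes (horizontal axis, log scale), grouped by glycan class. Circles are replicate 1 and squares replicate 2, filled where the peak was shared, and a grey line joins each of the 12 shared pairs. B4GALT2 spans 6.32 to 14.8, while CHST13 and MGAT2 nearly coincide.

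Of the 13 glycosaminoglycan genes, 6 had a shared peak. The median fold of this group was 6.13 over 10 peaks in replicate 1, above the list's 3.71, and 3.695 over 14 peaks in replicate 2, below the list's 3.87. B4GALT7, which adds the first galactose of the linker, had a peak on chromosome 5 from 177600118, 14 nt upstream of the annotated start. It ended at 177600237 in replicate 2 (fold 11.1, -log10 p 5.75) and was spliced over 3918 nt to 177604215 in replicate 1 (fold 8.35, -log10 p 5.28). The other linker enzymes had a peak in replicate 2 alone. B3GALT6, which adds the second galactose, had a fold of 2.88 at 591 nt from its start, and XYLT2, the xylosyltransferase that starts the linker, had a fold of 4.09 at 7706 nt.

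In heparan sulfate synthesis, HS2ST1, which sulfates the uronic acid of the chain, had the highest fold of the 18 replicate 1 peaks. Its peak began at 86914801 on chromosome 1 in both lists and ended at 86914951 in replicate 1 (fold 11.9, -log10 p 7.06) and 86915041 in replicate 2 (fold 9.49, -log10 p 8.79). The mean fold was 10.7 ± 1.70 (SD, n = 2). HS3ST3A1, which places the rare 3-O-sulfate, had a peak on chromosome 17 from 13601582 to 13601852 with a fold of 8.73 and from 13601522 to 13601762 with a fold of 9.94, a mean of 9.34 ± 0.856 (SD, n = 2). HS3ST3B1, its close paralog on the same chromosome, had low folds instead, 2.59 for 1 peak of replicate 1 and 2.42 and 2.36 for 2 peaks of replicate 2. The HS3ST3B1 peaks lay 329 to 569 nt from its start, and the nearest peaks of the lists were 29 nt apart without overlapping. The paralogs have closely related sequences, so how reads were split between them is uncertain. HS6ST1, which sulfates glucosamine, had 3 peaks in replicate 2 with folds of 2.23 at 316 nt from the start, 5.27 at 50814 nt and 2.92 at 51203 nt, and none in replicate 1. The reverse held for NDST1, the N-sulfotransferase that opens sulfation (fold 3.71), and for EXT1, a subunit of the polymerase (fold 4), which had 1 peak each in replicate 1.

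In chondroitin and dermatan sulfate synthesis, CHST14, the dermatan sulfotransferase, had high folds in both lists. Its peak on chromosome 15 ran from 40470991 to 40471169 in replicate 1 (fold 10.9, -log10 p 12.3) and from 40470961 to 40471228 in replicate 2 (fold 9.49, -log10 p 12.8), a mean fold of 10.2 ± 0.997 (SD, n = 2). CHSY1, a chondroitin polymerase, had folds of 6.49 and 8.76 on chromosome 15, from 101251693 to 101251842 and from 101251633 to 101251902, with the midpoint 281 nt from the 5' end in both lists. CHST13, a chondroitin sulfotransferase, began at 126524288 on chromosome 3 in both lists with folds of 3.44 and 3.3. It spanned 60 nt in replicate 1 and was spliced over 11841 nt in replicate 2, to a block of only 8 nt. A further CHST13 peak in replicate 2 had a fold of 1.46, and both replicate 2 peaks overlap the span of another gene, C3orf22. CHST3, a chondroitin sulfotransferase of another position, had a fold of 5.77 in replicate 1 alone. CHST10, which makes the HNK-1 epitope and belongs to no glycosaminoglycan class, had a fold of 6.33 in replicate 2 alone, 164 nt from its start.

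The folds of the shared peaks were close between the lists. In 11 of 12 pairs (91.7%) they lay within 1.5 times of each other, against 72.6% of the 2128 shared pairs of the whole lists. The median ratio of the larger to the smaller fold was 1.22 in these genes and 1.25 in all pairs. Across the 12 pairs, Spearman's rho was 0.76 for fold (all pairs 0.80) and 0.96 for -log10 p (all pairs 0.66). These are descriptions over 12 points, of which MGAT4B gave 2, and no source used here says whether both lists were called against the same input. The fold was higher in replicate 2 in 5 of 12 pairs (41.7%, all pairs 54.9%). The peak was longer in replicate 2 in 6 pairs (50%, all pairs 52.9%).

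Median folds were higher at shared than at unshared peaks of these genes, with no test run. They were 6.41 for the 12 shared and 3.45 for the 6 unshared peaks of replicate 1, and 6.97 for the 12 shared and 2.9 for the 18 unshared peaks of replicate 2. Over all peaks the medians were 3.71 and 3.71 in replicate 1 and 3.95 and 3.8 in replicate 2. Unshared peaks of these genes were also short, with a median of 75.5 nt in replicate 1 and 91 nt in replicate 2. Shared ones had medians of 165 and 241 nt. Over all peaks, the medians were 119 and 120 nt for unshared and 181 and 210 nt for shared ones. Peaks of 61 nt or less made up 4 of 18 in replicate 1 (22.2%, all peaks 15.6%) and 7 of 30 in replicate 2 (23.3%, all peaks 14.7%). Of these short peaks, CHST13 was shared in replicate 1 (25%, all short peaks 35.5%) and B4GALT5 in replicate 2 (14.3%, all short peaks 14.8%). The part of length in the sharing was not tested. Over all 18 and 30 peaks, the median fold was 4.27 in replicate 1 and 3.405 in replicate 2, against 3.71 and 3.87 for the whole lists, so it was above the list's median in replicate 1 and below it in replicate 2. With only the 50% of peaks of smallest p kept, it was above in both lists. The medians were then 6.41 against 3.9 in replicate 1 and 8.76 against 4.29 in replicate 2. They rest on peaks of only 11 of these genes. The mean of the 2 medians over all 18 and 30 peaks was 3.84 ± 0.612 (SD, n = 2).

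**Figure D3:**
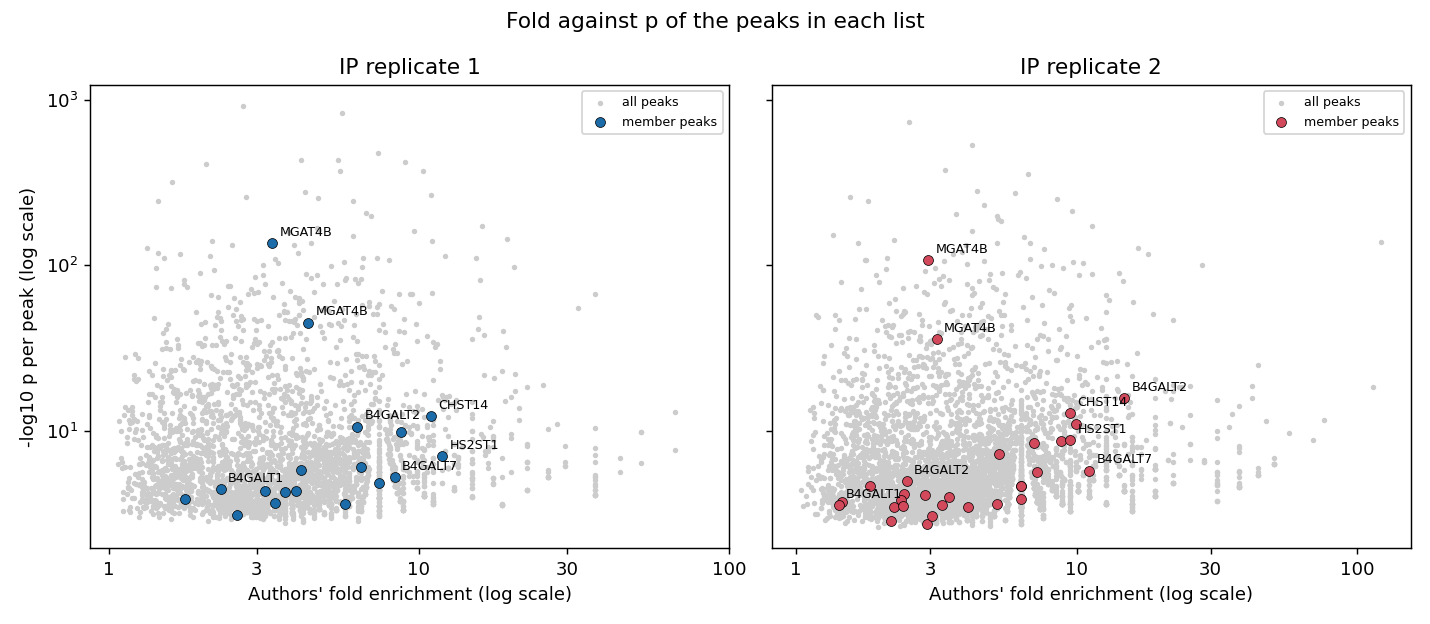
The authors' fold enrichment (horizontal axis) against -log10 p (vertical axis), both on log scales, for all peaks (grey) and the peaks of the 23 genes (coloured) in each list. The MGAT4B peaks stand at -log10 p of 35.8 to 136 with moderate folds, while HS2ST1, CHST14 and B4GALT7 have high folds at -log10 p under 13.

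The commonest fold was 7.42 in replicate 1 (107 peaks) and 6.33 in replicate 2 (196 peaks). Folds that were, within 0.5%, such a value multiplied by a quotient of integers no larger than 4 were found at 2 of 18 peaks of replicate 1 (11.1%, all peaks 11.3%) and 6 of 30 of replicate 2 (20%, all peaks 13.8%). In replicate 1 these were MGAT1 and NDST1. In replicate 2 they were B4GALT5, CHST10 and ST3GAL2, each at 6.33, HS2ST1 and CHST14, both at 9.49, and the MGAT4B peak at 3.17. The identical fold of HS2ST1 and CHST14 in replicate 2 is one of these recurring values.

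Between 50 and 55.6% of the peaks of these genes lay within 500 nt of the 5' end of the gene, and fewer within 200 nt. With the midpoint within 200 nt of the 5' end of the RefSeq span, 6 of 18 replicate 1 peaks (33.3%, all peaks 27.4%) and 5 of 30 replicate 2 peaks (16.7%, all peaks 21.6%) were at the 5' end, a mean of 25% ± 11.8 (SD, n = 2). They were B4GALT2, B4GALT7, CHST13, CHST14, EXT1 and MGAT4B in replicate 1 and B4GALT7, CHST10, CHST14, MGAT2 and MGAT4B in replicate 2. Several midpoints lay just outside, at 200 nt for B4GALT2, 204 nt for B4GALT5 and 207 nt for CHST13 in replicate 2 and at 212 nt for HS3ST3A1 in replicate 1. Within 500 nt, the counts were 10 of 18 (55.6%, all peaks 39.3%) and 15 of 30 (50%, all peaks 33.8%). Of these, 9 of 10 were shared in replicate 1 (90%, all such peaks 73.6%) and 9 of 15 in replicate 2 (60%, all such peaks 59.3%). Farther in, 3 of 8 were shared in replicate 1 (37.5%, all such peaks 59.5%) and 3 of 15 in replicate 2 (20%, all such peaks 38.3%), namely MGAT1, B4GALT5 and the downstream MGAT4B peak. The median fold within 500 nt was 6.41 and 6.33, and beyond it 3.54 and 2.96. Over all peaks these medians were 4.64 and 4.87 within 500 nt and 3.31 and 3.48 beyond it. No midpoint lay within 200 nt of the 3' end (0 of 18 and 0 of 30, all peaks 3.43% and 3.46%). Distances are genomic and include introns, so the group beyond 500 nt also holds peaks that begin near a start. Its highest folds were those of spliced peaks, MGAT1 in replicate 1 (7.42) and ST3GAL2 in replicate 2 (7.03). Their upstream edges lay 30 nt from another listed start and 42 nt from the 5' end, respectively. Positions relative to UTRs and coding sequence were not analysed here.

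**Figure D4:**
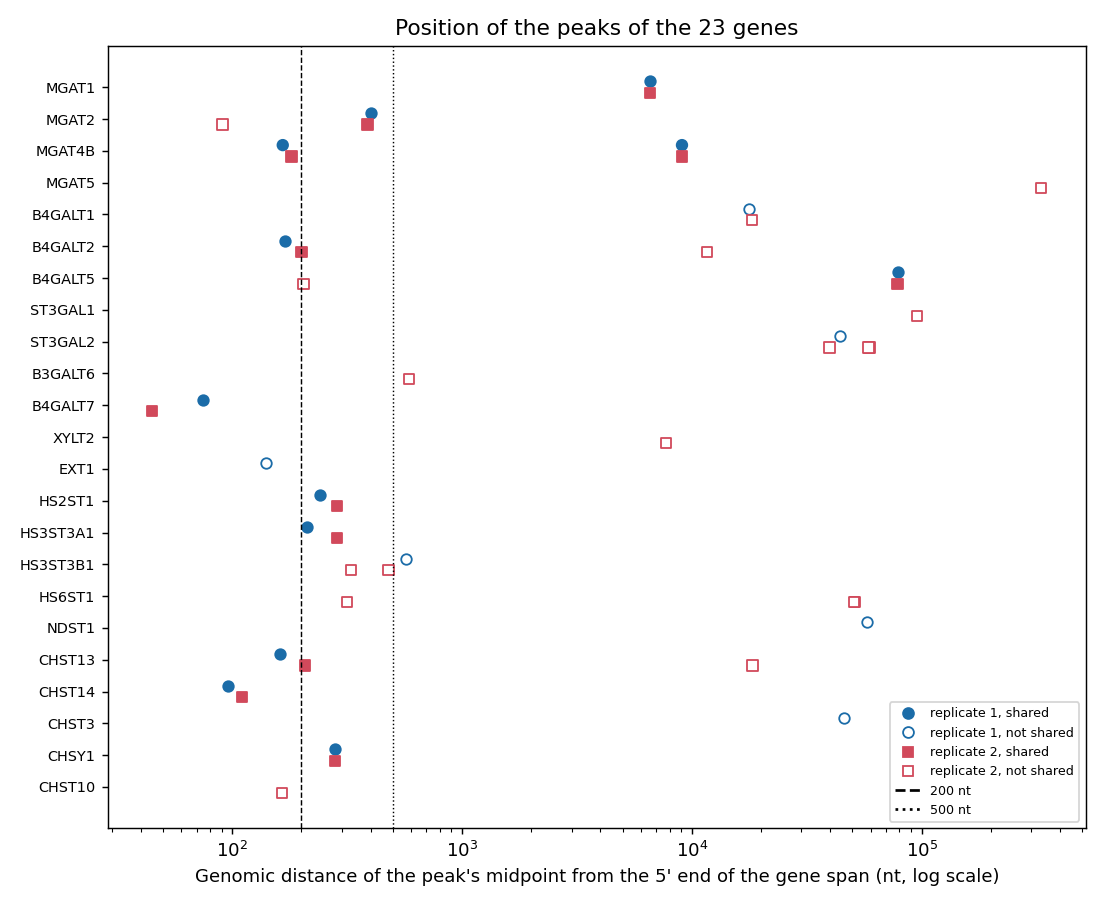
Genomic distance of each peak's midpoint from the 5' end of the gene span (horizontal axis, nt, log scale), with replicate 1 as circles and replicate 2 as squares, filled where shared. Dashed and dotted lines mark 200 and 500 nt. Of the filled circles 9 of 12 lie left of 500 nt.

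**Figure D5:**
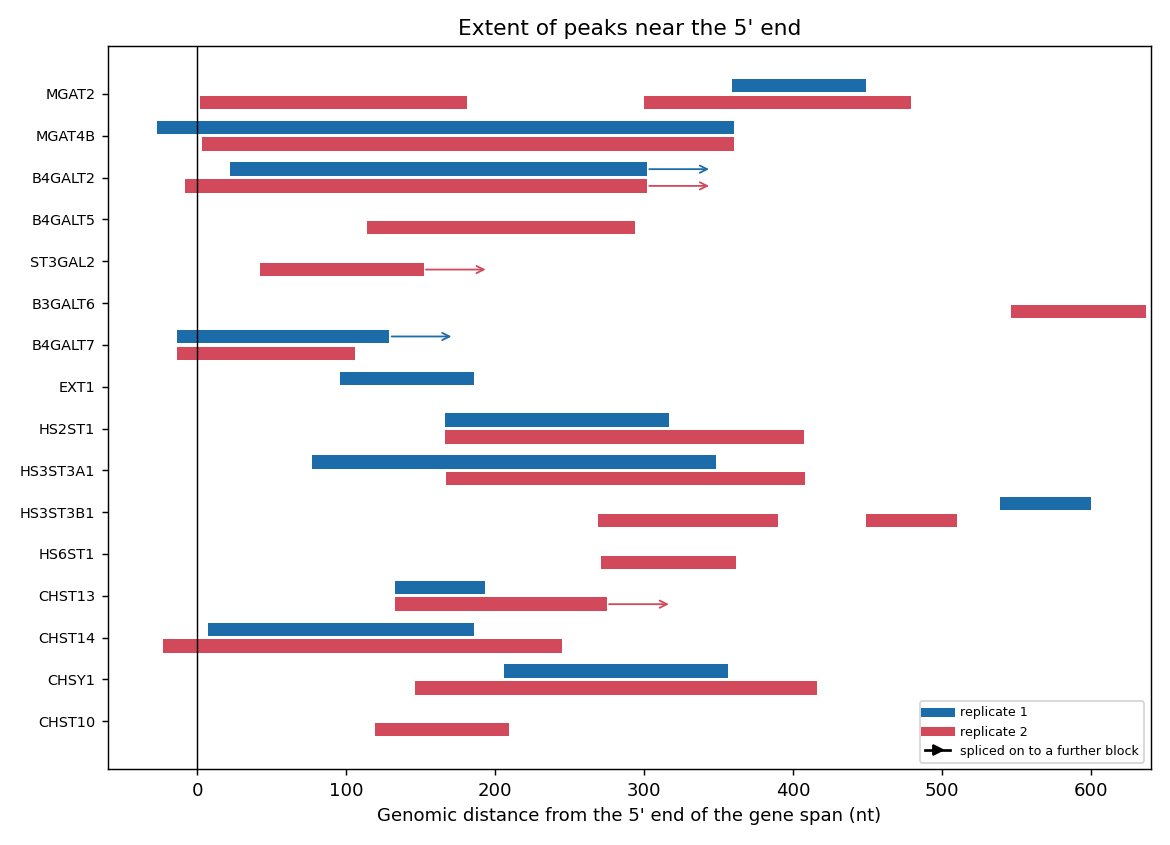
Extent of the peaks whose upstream edge lay under 600 nt from the 5' end of the gene span (horizontal axis, nt, to scale), with replicate 1 above replicate 2. Arrows mark peaks spliced on to a further block. HS2ST1 starts at 166 nt in both lists, B4GALT7 starts 14 nt upstream of the annotated end, and HS3ST3B1 shows no overlap.

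Peaks that joined exons were 3 of 18 in replicate 1 (16.7%, all peaks 26.4%) and 4 of 30 in replicate 2 (13.3%, all peaks 28.2%). B4GALT2 and MGAT1 were spliced in both lists, B4GALT7 in replicate 1, and CHST13 and ST3GAL2 in replicate 2. Every spliced peak of these genes had 2 blocks. Several genes had more than 1 peak, 1 of 17 in replicate 1 (MGAT4B, 5.88%, all genes 23.9%) and 8 of 20 in replicate 2 (40%, all genes 30.2%).

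The other steps of the glycan pathways were counted from lists of 137 further genes. Of these, 48 had a peak in either list, where 18.7% of all RefSeq protein-coding genes had one. Of the 48, 27 had peaks in both lists (56.3%, all genes 51.7%). In the counts that follow, the first number is the genes with peaks in both lists and the second those with a peak in either. The pathway lists hold 12 to 22 genes each, so these counts are not rates of calling. The folds given are those of 1 shared pair per gene, and further peaks of a gene are mostly left out. N-glycan trimming had 6 of 8, with MAN2A2 (folds 6.18 and 7.03) and MAN2A1 (5.77 and 5.9), the Golgi mannosidases that act between MGAT1 and MGAT2, and MAN1A1 (3.61 and 3.35) and the folding sensor UGGT1 (3.49 and 3.54). Proteoglycan cores had 5 of 7, with low folds for syndecan-1, SDC1 (2.83 and 3.66), and glypican-3, GPC3 (2.67 and 2.2). The oligosaccharyltransferase, which moves the finished precursor to the protein, had 4 of 7, with DDOST at 3.46 and 3.08 and RPN2 at 4.43 and 1.74. Dolichol and mannose donors had 2 of 6. DPAGT1, which makes the first step of the lipid-linked precursor, and DOLK had a peak in replicate 2 alone, and SRD5A3, which makes dolichol, in replicate 1 alone, so the absence of peaks held for the ALG symbols and not for every gene of precursor assembly. Of this list, GMPPB, which makes GDP-mannose, had folds of 8.48 and 8.81. Sugar and sulfate donors had 3 of 6, with UGDH, the source of UDP-glucuronic acid, at 2.29 and 5.42. Another UGDH peak of replicate 1 had a fold of 2.71 and a smaller p (-log10 p 40.7, against 9.77). The same held for DDOST in replicate 1, with a further peak of fold 4.1 (-log10 p 50.4, against 10.8). Other glycosaminoglycan genes had 2 of 5, the linker kinase FAM20B (7.42 and 3.72) and CHPF (2.14 and 2.93). O-glycan genes had 2 of 4, POMGNT1 (4.24 and 11.4) and POFUT2 (2.61 and 3.04). A mixed list of other transferases, mainly sialyl- and N-acetylgalactosaminyltransferases, had 3 of 4. Among them was B4GAT1, which is of neither kind and primes matriglycan on dystroglycan, at 9.89 and 8.86. Of the 14 Golgi transporter genes, SLC35B2, which carries the sulfate donor, had a peak, in replicate 2.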

How the data were processed

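Stranded libraries were made from poly(A) RNA of HepG2 before and after m7G immunoprecipitation, per the labels' protocols. STAR and GRCh38 are named without a role, per the submitters' processing notes, and no source used here names the peak caller or its filters. Each deposited list, 1 per IP sample, gives per the file headers a p-value, its log10 (used here as the authors' score, with the sign turned), a log10 FDR score, a fold ratio and exon blocks for every peak. The authors' p-values are listed as 0 for 9 and 4 peaks, so log10 p was used, and the weakest deposited FDR had a -log10 of 1.32. The deposited fold is each peak's own value, with unstated scaling, and was used to describe and rank peaks. Input values were not analysed here.

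Genes were matched by symbol to a RefSeq table (GRCh38.p14), and 3 and 8 peaks, none of the genes described, stayed unplaced. Sequence came from a RefSeq table of windows from 250 bases before to 50 after gene starts, in which 20 of the 23 genes were listed. A shared peak had a peak of the same gene and strand in the other list that covered 50% of the shorter of them in exon blocks, and pairs were matched uniquely, largest overlap first. The genes, lists and settings were chosen with earlier results of these data known. Every gene was named, and of the other pathway lists up to 4 genes per list with a shared peak were eligible, by the best lower rank of fold. No test across the 2 lists was run, and shares over all peaks or genes are given as the background. Overlap and position steps were tested on simulated data. Alternatives were the 50% of peaks with the smallest p, folds of at least 2, membership widened to related symbols such as ST6GALNAC and B4GALNT, other overlaps and other windows. Scripts ran under Python 3.11.15 with pandas 2.3.3, numpy 2.4.6, matplotlib 3.10.9 and scipy 1.17.1.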

Additional observations from a re-analysis of the deposited data

How the results depend on the processing

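Only called peaks enter these values, and the unknown read depth limits which peaks could be called. Genes with peaks in both lists made up 60.9% (all genes 51.7%), and 61.5% with wider membership. The share was 54.5% with the 50% of peaks of smallest p (all genes 49.9%). It was 52.2% with folds of at least 2 (all genes 48.6%) and 47.8% with a shared base required (all genes 46.5%). With 80% reciprocal overlap the share was 8.7% (all genes 19.3%), and shared peaks made up 13.3% (53.3% as reported). Per list, shared peaks were 16.7 and 10%, below the 23.8 and 16.8% of all peaks. Pairs within 1.5 times made up 100% (3 of 3 pairs, all pairs 78.4%). Fewer peaks pass this setting by construction. For the 50% of peaks with the smallest p, shared peaks made up 75.6% (87.5 and 63.6% per list, all peaks 74.6 and 52.5%), 5'-end peaks 36.9% (25% as reported), and the median fold was 7.58 (3.84 as reported). In replicate 2 the 5'-end share thus went from below the list's (16.7 against 21.6%) to above it (36.4 against 24.9%). The median fold also went above the list's (8.76 against 4.29). Peaks of only 11 genes were left at this setting, and the cause was not tested. The 5'-end share was 52.8% with a window of 500 nt and 42.2% when any base within 200 nt counted, both wider by construction. It was 22.2% from the nearest start that RefSeq lists, a setting chosen after seeing the data. Without one replicate it ranged from 16.7 to 33.3%, and the median fold from 3.4 to 4.27. The other alternatives moved these values by less than the spread between the lists or the interval of the share. Shared peaks were not computed without one replicate, since a single list has none. No paired analysis was possible because input samples had no values here and nothing was tested.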
